A study of Mus musculus with 8 samples.

Results

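The genes described here are the translation initiation and elongation factors, the proteins that bring the ribosome to an mRNA, find the start codon and move the ribosome along the message. They were chosen by name, as all non-control probes named Eif with a number or Eef1 or Eef2 in the array files, leaving out the eIF4E-binding proteins, the eIF4E transporter, the eIF2α kinases and the eEF2 kinase. This gave 119 of 41174 probes, for 52 genes. RNA came from mouse salivary tissue in 5 groups. The tumours had been induced with the kinase AKT and were untreated (n = 2) or treated with rapamycin for 3 days (n = 1) or 14 days (n = 2). The normal glands, parotid (n = 2) and submandibular (n = 1), were untreated. Rapamycin inhibits the kinase complex mTORC1. The labels give no strain, age, sex, dose, AKT transgene or promoter, and leave unstated whether replicate arrays stand for different mice. Y-linked and Xist signal, given below, was opposite between the 2 untreated tumours and between the 2 parotid glands. Neither of those pairs therefore repeats 1 RNA sample. The 2 day 14 arrays did not differ in this way. The p-values measure only the spread between these samples, which for day 14 may be technical.

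In the initiation pathway, eIF2 (Eif2s1, Eif2s2 and Eif2s3x encode its α, β and γ subunits) carries the initiator tRNA to the small ribosomal subunit, eIF2B recharges eIF2 with GTP, and eIF3 is the large scaffold on the small subunit. The eIF4 factors bind the mRNA cap and unwind the leader of the message, eIF1 and eIF1A keep start-codon choice accurate, eIF5 and eIF5B close the step, and eEF1 and eEF2 deliver aminoacyl-tRNA and translocate the ribosome. mTORC1 acts on this machinery through the eIF4E-binding proteins and through mRNAs that begin with a run of pyrimidines, a class that includes many translation factor mRNAs. Acinar cells of the salivary glands are protein-secreting cells with a high rate of translation.

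Promoter windows from RefSeq (build GRCm38.p6, 250 bases before to 50 after each annotated start) were matched for 42 of the 52 genes. The hexamer CACGTG, the canonical E-box, which reads the same on both strands, occurred in the windows of 11 of the 42 genes (26.2%), against 8.1% of 27025 genes with a window. It was in 7 of the 20 matched genes that fell at day 14 (35.0%) and in 4 of the 22 other matched genes (18.2%). A single upstream window is printed for each of the 7 genes that fell, with the hexamer in capitals; Eif4e and Eif5a have a further upstream match that is not printed.
Eif4e: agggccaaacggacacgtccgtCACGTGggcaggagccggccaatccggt
Eif4g1: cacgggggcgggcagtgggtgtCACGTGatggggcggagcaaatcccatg
Eif4a1: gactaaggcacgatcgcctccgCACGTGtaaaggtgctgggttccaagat
Eif5a: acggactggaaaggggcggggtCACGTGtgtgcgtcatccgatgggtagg
Eif3k: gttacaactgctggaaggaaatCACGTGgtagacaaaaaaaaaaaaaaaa
Eif3f: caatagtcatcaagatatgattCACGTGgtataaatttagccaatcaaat
Eef2: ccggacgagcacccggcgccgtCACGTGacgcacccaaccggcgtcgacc
In the order printed they lie on the plus strand at chr3:138527182-138527231 and chr16:20672651-20672700, on the minus strand at chr11:69672585-69672634, chr11:69921433-69921482 and chr7:28981905-28981954, and on the plus strand at chr7:108934325-108934374 and chr10:81176566-81176615. The first base of the hexamer was at -64, -54, -189, -74, -44, -68 and -43 relative to the annotated start.

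A pyrimidine start, here a C at the annotated start followed by 4 bases that are each C or T, was found in 2 of the 42 genes (4.76%) against 3.01% of all genes. They were Eif3f and Eif2s3x. The 30 bases around the start follow, with the pyrimidine run of 11 bases in capitals, from chr7:108934400-108934429 on the plus strand and chrX:94212637-94212666 on the minus strand.
Eif3f: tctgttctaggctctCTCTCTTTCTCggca
Eif2s3x: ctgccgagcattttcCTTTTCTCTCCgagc
These matches describe letters in a window and do not show that a factor bound there or where transcription began in these tissues.

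Of the 52 genes, 51 could be fitted. Eif2b3, a subunit of eIF2B, had 1 probe that was well above background in no complete group. Of the fitted genes, 49 cleared background on each of the 8 arrays, and the exceptions were Eef1a2 (2 arrays) and Eif2s3y (4 arrays). Current RefSeq symbols replaced older names for 17 genes, among them the Eif3s names of the eIF3 subunits. The rule also took in Ago1 to Ago4, filed as Eif2c1 to Eif2c4, which are Argonaute proteins of RNA silencing and not translation factors. Where a gene had several usable probes (34 genes), the brightest stood for it. Levels below are log2 signals relative to the 75th percentile of the array, and levels of different genes cannot be compared because each probe has its own brightness. Differences are log2 values with their standard error, tested with limma over 16366 genes with Benjamini-Hochberg adjustment at a threshold of 0.05.

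The arrays differed in ways that touch these genes. Slide 1 held both untreated tumours and replicate 1 of day 14 and of parotid gland, and slide 2 held replicate 2 of both, the day 3 tumour and the submandibular gland. Signal at the 75th percentile reached 966 and 972 for untreated tumour and 730 at day 3, but 145 to 384 in the other groups. The 10 proliferation markers, such as Mki67 and Top2a, had a summed log2 level of 7.27 and 7.36 for untreated tumour and 6.70 at day 3, against 3.69 and 3.87 at day 14 and 3.73 to 4.53 in the glands. Summed markers of salivary acini were high in parotid gland (12.26 and 13.23), at day 14 (12.60 and 12.63) and in submandibular gland (11.26) and low in untreated tumour (6.22 and 7.03) and at day 3 (6.68). All 12 acinar markers were well above background on the parotid and day 14 arrays. In submandibular gland 7 were, in untreated tumour 6 and 10, and at day 3 9. The 7 granular duct markers read 12.37 and 12.38 at day 14, 12.11 in submandibular gland and 9.22 and 10.10 in parotid gland. They read -0.19 and 0.25 for untreated tumour and 1.16 at day 3. Between the untreated tumours and the day 14 arrays, summed B and plasma cell markers read -1.83 and -2.71 against 6.18 and 6.31, T cell markers -2.12 and -1.99 against 3.29 and 3.68, adipocyte markers 4.52 and 3.70 against 8.14 and 7.96, and basal and myoepithelial markers 4.95 and 4.06 against 7.21 and 7.25. Endothelial markers read 2.38 and 1.49 against 3.99 and 3.91, macrophage markers 4.34 and 4.86 against 3.25 and 3.54, fibroblast markers 7.0 and 5.48 against 6.51 and 6.5, and nerve markers 4.68 and 4.76 against 4.68 and 5.11. In these bulk samples, fewer cells of a type and less RNA per cell cannot be told apart, and the part of cell composition in the differences below was not tested.

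A second difference lay along the transcript. In 2877 genes with 2 or more probes well above background on all arrays, at least 100 bases apart, the signal of the more 5' probe relative to the more 3' probe was lower at day 14 than in untreated tumour in 74.4% of genes, with a median log2 difference of -0.49. The median was -0.52 and -0.47 on the day 14 arrays, against -0.15 at day 3, -0.17 and -0.24 in parotid gland and -0.18 in submandibular gland. Among 28 member genes, 3 of them Argonautes, the median was -0.31 at day 14 (20 genes below untreated tumour) and -0.32 in parotid gland (19). It was -0.15 in submandibular gland (21) and -0.06 at day 3 (18). Single members spanned -2.76 (Eef1a1) to 1.27 (Eef1g) at day 14. When the most 3' usable probe stood for each gene, the day 14 count against untreated tumour was 7 higher and 21 lower. This choice was made after seeing the pattern and changed the probe of 18 members. The count was close to the one given next, but not all of the genes were the same. Eif2a, Eif2s2 and Eif4e2 changed sign, and Eif3c was called lower. The part of this gradient in the differences of single genes was not tested beyond that, and probes of the same gene differed in sign at day 14 in 13 of the 34 genes with several.

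After 14 days of rapamycin, 22 of the 51 genes were lower than in untreated tumour and 6 were higher, where 47.7% of all genes tested were called (24.3% higher and 23.5% lower). The median difference of the members was -0.71, against 0.02 for all genes. Falls were called in 3 of 4 eIF2 genes, 2 of 4 eIF2B genes, 4 of 12 eIF3 genes and 6 of 11 eIF4 genes, and in both eIF1A genes, Eif2a, Eif5a and 3 of 7 genes named as elongation factors. Called higher were Eef1a2, Eif4e3, Eif5a2, Ago4, Eif4a2 and, on 1 of its 2 probes that disagree, Eef1a1. In 25 of the 51 genes (49.0%) both day 14 arrays were below all 6 other arrays, against 14.7% of all genes, and in 4 both were above all others, against 12.1%. Leaving out an array of either group lowered the count to 13 and 14 without day 14 replicate 1 and 2 and to 15 and 14 without untreated replicate 1 and 2, and the members' median stayed between -0.68 and -0.61. Under other scalings the medians of the members and of all genes were -0.95 and -0.12 with the deposited values (4 higher, 31 lower), -0.59 and 0.14 with the percentile taken over probes above background on all arrays, and -0.74 and 0.16 with normexp background correction (3 higher, 23 lower). Of the 28 genes, 23 were called under all 5 scalings, and Eef1a1, Eef1a2, Eif4a2, Eif5a2 and Eif2s3x were not.

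**Figure D1:**
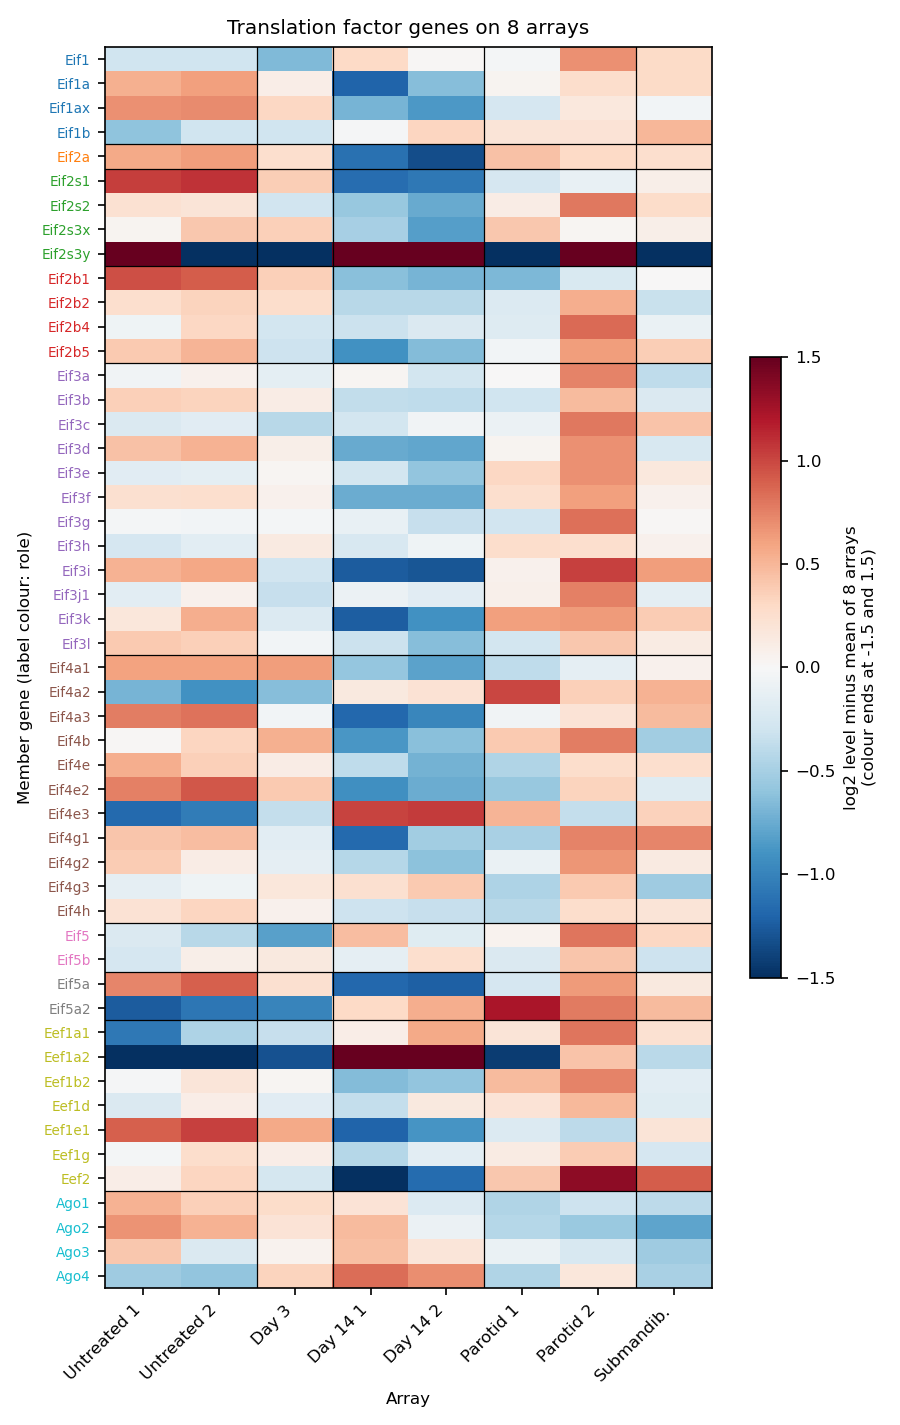
Level of each of the 51 fitted genes (rows, grouped by role from eIF1 and eIF1A at the top to the elongation factors and Argonautes at the bottom) on each of the 8 arrays (columns), as log2 level minus the gene's mean over the arrays. Blue cells are below the mean and red cells above it; in 25 genes both day 14 columns are the lowest, and parotid replicate 2 is above parotid replicate 1 in 42 genes.

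**Figure D2:**
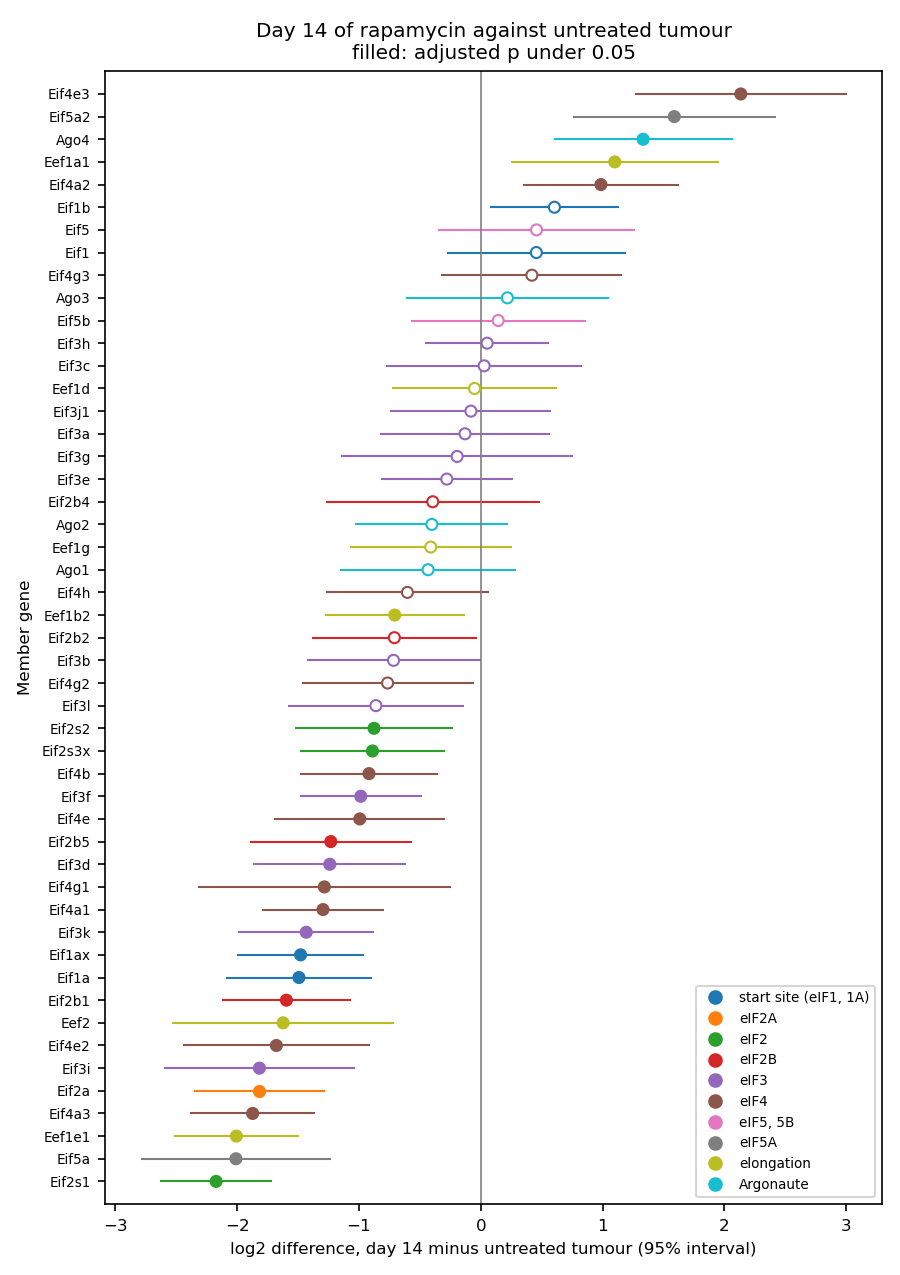
Log2 difference between day 14 and untreated tumour (horizontal axis) for 49 genes with its 95% interval, filled where the adjusted p is under 0.05 and coloured by role. Eef1a2 and Eif2s3y lie off the scale and are not drawn; Eif2s1 has the lowest value, -2.17, and Eif4e3 the highest drawn, 2.13.

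The largest fall at day 14 was in a single gene of the eIF2 complex. Eif2s1, the α subunit whose phosphorylation slows initiation under stress, read 2.94 and 2.99 in untreated tumour, 2.26 on day 3, 0.75 and 0.83 on day 14, 1.65 and 1.79 in parotid and 1.99 in submandibular gland. Its day 14 difference from untreated tumour was -2.17 ± 0.19 (SE, adjusted p = 0.000566), a 4.51-fold fall. The untreated tumours were above every other array and the day 14 arrays below every other, with the day 3 array between them. Against parotid gland, untreated tumour was 1.24 ± 0.19 (SE, adjusted p = 0.00395) higher and the day 14 difference was -0.93 (adjusted p = 0.033). Its probes at chr12:79803741-79803800 and chr12:79804244-79804303 (mm8) gave day 14 differences of the same sign.

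Eif2s2, the β subunit, differed at day 14 by -0.88 ± 0.27 (SE, adjusted p = 0.0362) on its brightest probe. Its other probes gave 0.86 and 0.89 and did not pass the test (adjusted p = 0.0795 and 0.0946 with each probe fitted on its own), so the fall rests on 1 probe. The γ subunit has an X-linked gene, Eif2s3x, and a Y-linked copy, Eif2s3y. Eif2s3y read 1.86 and -7.69 in untreated tumour, -5.91 on day 3, 2.23 and 1.91 on day 14, -5.48 and 1.84 in parotid and -5.10 in submandibular gland. It was well above background in untreated replicate 1, parotid replicate 2 and both day 14 arrays and not on the other 4, so it divided arrays within groups, and its day 14 difference of 4.98 did not pass the test (adjusted p = 0.266). The fitted Y-linked markers, Ddx3y and Kdm5d (2 of 3), had summed levels of 0.73 to 1.83 on the same 4 arrays and -6.54 to -3.97 on the others. Xist, which is transcribed from the inactive X chromosome, read -5.45 and -5.17 in untreated replicate 1 and parotid replicate 2, -2.10 and -2.40 at day 14 and 3.1 to 4.46 elsewhere.

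Eif2s3x read 3.53 and 3.89 in untreated tumour, 3.84 on day 3, 2.98 and 2.66 on day 14, 3.89 and 3.51 in parotid and 3.57 in submandibular gland. On this brightest probe its 4 lowest values were on the 4 arrays with Y-linked signal. Another probe, well above background on all arrays, had its 4 highest values on those same arrays. At day 14 it fell by 0.89 ± 0.25 (SE, adjusted p = 0.0267), and without untreated replicate 2, which lacked that signal, the difference was -0.71 (adjusted p = 0.179). Its 3 usable probes differed in sign at day 14, from -1.53 to 0.15. The part of sex in the day 14 difference was not tested.

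Of the 4 fitted subunits of eIF2B, the exchange factor for eIF2, Eif2b1 and Eif2b5 fell at day 14 and Eif2b2 and Eif2b4 did not pass the test, with differences of -0.71 and -0.39. Eif2b1, the regulatory α subunit, read 3.79 and 3.73 in untreated tumour, 3.18 on day 3, 2.20 and 2.12 on day 14, 2.15 and 2.59 in parotid and 2.83 in submandibular gland. Both untreated tumours were the highest arrays, 1.39 ± 0.22 (SE, adjusted p = 0.00446) above parotid gland and 0.93 ± 0.27 (SE, adjusted p = 0.0444) above submandibular gland. At day 14 it was -1.60 ± 0.22 (SE, adjusted p = 0.00228) relative to untreated tumour, where it overlapped the parotid glands, with a difference of -0.21 from them (95% interval -0.74 to 0.32). Eif2b5, the catalytic ε subunit, fell by 1.23 ± 0.28 (SE, adjusted p = 0.0129). Eif2a, a separate factor that can also bring initiator tRNA, read 1.14 and 1.19 in untreated tumour, 0.81 on day 3, -0.55 and -0.76 on day 14, 1.01 and 0.87 in parotid and 0.82 in submandibular gland and differed at day 14 by -1.82 ± 0.22 (SE, adjusted p = 0.00153). Its dimmer and more 3' probe gave 0.52 (adjusted p = 0.415), so this fall rests on 1 probe.

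Among the factors of start-codon choice, both eIF1A genes fell at day 14 and neither eIF1 gene passed the test there. Eif1a read 2.78 and 2.86 in untreated tumour, 2.34 on day 3, 1.05 and 1.61 on day 14, 2.29 and 2.5 in parotid and 2.54 in submandibular gland, and its day 14 difference was -1.49 ± 0.25 (SE, adjusted p = 0.00449). Eif1ax, its X-linked paralogue, read 4.67 and 4.69 in untreated tumour, 4.29 on day 3, 3.28 and 3.12 on day 14, 3.73 and 4.13 in parotid and 3.94 in submandibular gland. It was 0.75 ± 0.22 (SE, adjusted p = 0.0361) higher in untreated tumour than in parotid gland and at day 14 fell by 1.48 ± 0.22 (SE, adjusted p = 0.00285). For both genes the untreated tumours were the highest 2 arrays and the day 14 arrays the lowest 2. Eif1 read 6.19 and 6.20 in untreated tumour, 5.83 on day 3, 6.79 and 6.51 on day 14, 6.46 and 7.18 in parotid and 6.78 in submandibular gland, with a day 14 difference of 0.46 (adjusted p = 0.255). Its day 3 array was the lowest and parotid replicate 2 the highest. These values are from its probe on chromosome 11. The other Eif1 probe, positioned on chromosome 1, gave -0.86 at day 14 and 0.45 for untreated tumour against parotid gland. Eif1b, a paralogue of Eif1, was lower in untreated tumour than in submandibular gland, with a difference of -0.95 ± 0.27 (SE, adjusted p = 0.0407).

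Of the 12 fitted eIF3 subunits, 4 fell at day 14 and none rose, where 23.5% of all genes fell and 24.3% rose. The subunits' median was -0.50, with a range of -1.82 to 0.05. Eif3i read 3.42 and 3.47 in untreated tumour, 2.61 on day 3, 1.65 and 1.61 on day 14, 2.96 and 3.92 in parotid and 3.52 in submandibular gland. It was lowest on both day 14 arrays, with a difference of -1.82 ± 0.32 (SE, adjusted p = 0.00575) from untreated tumour and -1.81 ± 0.32 (SE, adjusted p = 0.0244) from parotid gland. Eif3k, a peripheral subunit, read 2.23 and 2.60 in untreated tumour, 1.85 on day 3, 0.81 and 1.15 on day 14, 2.67 and 2.69 in parotid and 2.43 in submandibular gland and differed by -1.43 ± 0.23 (SE, adjusted p = 0.00403). Eif3d, which can contact the cap itself, and Eif3f differed by -1.24 and -0.99 (adjusted p = 0.0103 and 0.0103). The core subunits Eif3a, Eif3b and Eif3c differed by -0.13, -0.72 and 0.03 on their brightest probes and did not pass the test there. The dimmer, more 5' probe of Eif3b, well above background on all arrays, gave -2.41, so the size of its fall depends on the probe. Eif3e, Eif3g, Eif3h and Eif3j1 differed by -0.28, -0.19, 0.05 and -0.08, and Eif3l by -0.86 (adjusted p = 0.0539). The 5 probes of Eif3c differed in sign, and the most 3' gave -1.12 (adjusted p = 0.0272). Between untreated tumour and parotid gland no eIF3 subunit passed the test in either direction.

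The eIF4 genes moved both ways at day 14, 6 of 11 lower and 2 higher, where 23.5% of all genes were lower and 24.3% higher. Eif4a1, the RNA helicase of the cap complex, read 5.34 and 5.34 in untreated tumour, 5.36 on day 3, 4.16 and 3.93 on day 14, 4.36 and 4.60 in parotid and 4.80 in submandibular gland. It was 0.86 ± 0.21 (SE, adjusted p = 0.0199) higher in untreated tumour than in parotid gland, and at day 14 differed by -1.30 ± 0.21 (SE, adjusted p = 0.00379) from untreated tumour and -1.32 ± 0.25 (SE, adjusted p = 0.016) from day 3. The day 3 array stayed at the level of the untreated tumours, and both day 14 arrays were lower than all others. A more 5' probe (chr11:69484726-69484880) differed by -3.07, against -1.30 for the one given (chr11:69483293-69483352). The remaining probe was not well above background on either day 14 array.

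Eif4a2, the helicase paralogue, rose at day 14. It read 3.77 and 3.56 in untreated tumour, 3.83 on day 3, 4.62 and 4.68 on day 14, 5.47 and 4.82 in parotid and 4.98 in submandibular gland. Untreated and day 3 tumours held the 3 lowest values. Untreated tumour differed by -1.48 ± 0.27 (SE, adjusted p = 0.00725) from parotid gland and -1.32 ± 0.32 (SE, adjusted p = 0.0272) from submandibular gland. At day 14 it was 0.99 ± 0.27 (SE, adjusted p = 0.0241) above untreated tumour, although its more 5' probe gave 0.00. Eif4a3, a related helicase that is part of the exon junction complex, read 2.15 and 2.20 in untreated tumour, 1.34 on day 3, 0.20 and 0.40 on day 14, 1.33 and 1.58 in parotid and 1.86 in submandibular gland and at day 14 fell by 1.87 ± 0.21 (SE, adjusted p = 0.00119). Its untreated tumours were the highest arrays.

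Eif4e, the cap-binding protein that the eIF4E-binding proteins block, read 3.00 and 2.81 in untreated tumour, 2.56 on day 3, 2.07 and 1.75 on day 14, 2.01 and 2.72 in parotid and 2.70 in submandibular gland. Its day 14 difference was -0.99 ± 0.29 (SE, adjusted p = 0.0316), a 1.99-fold fall, but the day 14 arrays overlapped the parotid glands. Eif4g1, the scaffold of the complex, read 4.66 and 4.71 in untreated tumour, 4.09 on day 3, 3.08 and 3.72 on day 14, 3.77 and 4.99 in parotid and 4.98 in submandibular gland. Its day 14 difference was -1.28 ± 0.43 (SE, adjusted p = 0.0487), near the threshold, and parotid replicate 1 lay just above the day 14 arrays while replicate 2 was the highest array. Eif4b, a cofactor of the helicase, fell by 0.92 ± 0.23 (SE, adjusted p = 0.0199) against untreated tumour and by 1.34 ± 0.23 (SE, adjusted p = 0.0232) against parotid gland.

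Of the eIF4E relatives, Eif4e2 fell at day 14 and Eif4e3 rose. Eif4e2, a cap-binding protein linked to translational repression, read 4.31 and 4.48 in untreated tumour, 3.95 on day 3, 2.63 and 2.81 on day 14, 2.99 and 3.89 in parotid and 3.36 in submandibular gland, with a day 14 difference of -1.68 ± 0.32 (SE, adjusted p = 0.00708). Of its 4 probes 3 fell, and the most 3' gave 0.44 (adjusted p = 0.396). Eif4e3, another family member, read -2.01 and -1.89 in untreated tumour, -1.20 on day 3, 0.17 and 0.20 on day 14, -0.34 and -1.20 in parotid and -0.51 in submandibular gland. It rose at day 14 by 2.13 ± 0.36 (SE, adjusted p = 0.0047), a 4.39-fold rise, and the day 14 arrays were above all others. Its difference between untreated tumour and parotid gland was -1.18 ± 0.36 (SE, adjusted p = 0.0427). Both of its probes rose at day 14, by 2.13 and 1.51. Eif4g2, Eif4g3 and Eif4h differed by -0.77, 0.42 and -0.60 and did not pass the test.

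**Figure D3:**
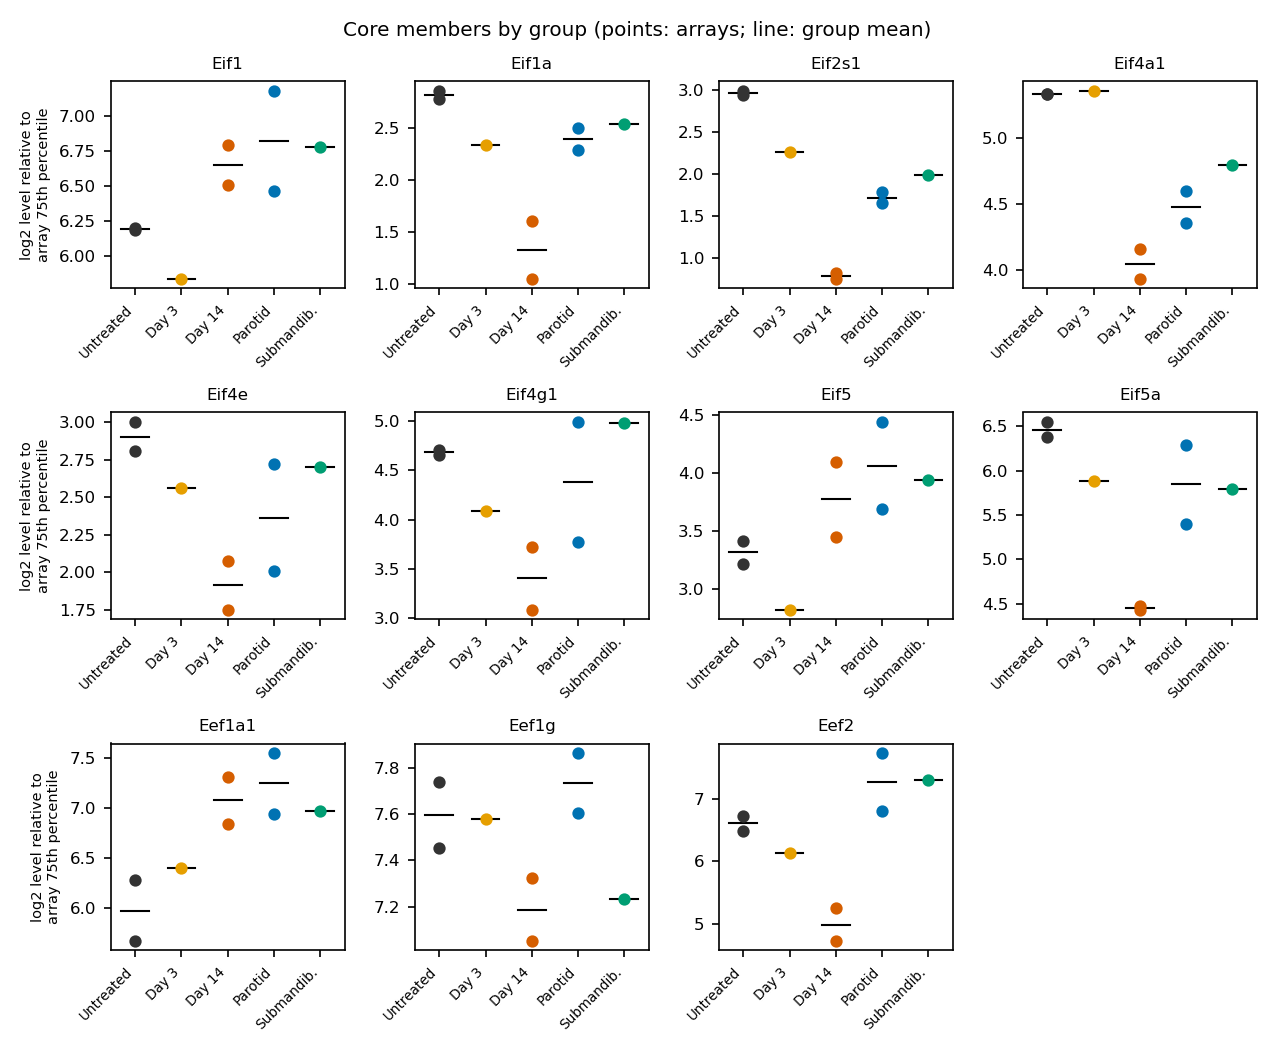
Levels of 11 core genes (1 panel each; log2 level relative to the array's 75th percentile on the vertical axis) in the 5 groups on the horizontal axis, with a point for each array and a line for the group mean. Eif2s1 falls from 2.94 and 2.99 in untreated tumour to 0.75 and 0.83 at day 14, while Eif1, Eif5 and Eef1g show no called difference between those groups.

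Eif5, the GTPase activator of eIF2, read 3.41 and 3.22 in untreated tumour, 2.82 on day 3, 4.10 and 3.45 on day 14, 3.69 and 4.44 in parotid and 3.94 in submandibular gland. Both day 14 arrays were above both untreated tumours, but the difference of 0.46 did not pass the test (adjusted p = 0.296). Nor did Eif5b, which joins the ribosomal subunits, at 0.14. Eif5a carries the amino acid hypusine and helps the ribosome through difficult peptide bonds. It read 6.38 and 6.55 in untreated tumour, 5.89 on day 3, 4.48 and 4.43 on day 14, 5.40 and 6.29 in parotid and 5.79 in submandibular gland. It was lowest on both day 14 arrays, with differences of -2.01 ± 0.32 (SE, adjusted p = 0.00397) against untreated tumour, -1.43 ± 0.40 (SE, adjusted p = 0.0466) against day 3 and -1.39 ± 0.32 (SE, adjusted p = 0.045) against parotid gland. The 2 probes, at chr11:69733422-69733481 and the more 5' chr11:69734146-69734205, differed by -2.01 and -3.08.

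Its paralogue Eif5a2 read -3.21 and -3.04 in untreated tumour, -2.95 on day 3, -1.65 and -1.41 on day 14, -0.73 and -1.18 in parotid and -1.48 in submandibular gland. Untreated and day 3 tumours held the lowest 3 values. Untreated tumour alone differed by -2.17 ± 0.34 (SE, adjusted p = 0.00466) from parotid gland and -1.64 ± 0.42 (SE, adjusted p = 0.0316) from submandibular gland. At day 14 it was 1.59 ± 0.34 (SE, adjusted p = 0.0117) above untreated tumour, near the submandibular gland and below the parotid glands. These values are from the probe at chr3:28989596-28989655. The other probe, more 5', was well above background in both untreated tumours and on neither day 14 array. Eif6, which keeps the ribosomal subunits apart and is filed under a name outside the rule, read 4.40 and 4.56 in untreated tumour, 3.62 on day 3, 2.86 and 3.05 on day 14, 3.45 and 4.23 in parotid and 3.84 in submandibular gland, with a day 14 difference of -1.53 ± 0.29 (SE, adjusted p = 0.00725).

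Of the 7 genes named as elongation factors, 3 fell at day 14 (Eef2, Eef1e1 and Eef1b2) and 2 were called higher (Eef1a1 and Eef1a2). Over all genes 23.5% were called lower and 24.3% higher. Eef2, which translocates the ribosome, read 6.49 and 6.72 in untreated tumour, 6.13 on day 3, 4.72 and 5.24 on day 14, 6.80 and 7.74 in parotid and 7.30 in submandibular gland. Both day 14 arrays were the lowest, with a difference of -1.62 ± 0.38 (SE, adjusted p = 0.0145) from untreated tumour and -2.29 ± 0.38 (SE, adjusted p = 0.0206) from parotid gland, where it was the largest fall. The day 3 array lay below the untreated tumours without passing the test (-0.48, adjusted p = 0.875). Eef1e1, a small eEF1-related protein that belongs to the multi-tRNA synthetase complex, read 3.03 and 3.15 in untreated tumour, 2.69 on day 3, 0.93 and 1.24 on day 14, 1.92 and 1.73 in parotid and 2.32 in submandibular gland. It was 1.26 ± 0.21 (SE, adjusted p = 0.00561) higher in untreated tumour than in parotid gland and at day 14 fell by 2.01 ± 0.21 (SE, adjusted p = 0.000951), with the untreated tumours highest and the day 14 arrays lowest.

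Of the subunits of the eEF1B exchange factor, Eef1b2 fell at day 14, and Eef1d (-0.05) and Eef1g did not pass the test. Eef1b2 read 6.64 and 6.84 in untreated tumour, 6.69 on day 3, 6.0 and 6.06 on day 14, 7.13 and 7.41 in parotid and 6.5 in submandibular gland and fell by 0.71 ± 0.24 (SE, adjusted p = 0.0495), just under the threshold. Eef1g read 7.45 and 7.74 in untreated tumour, 7.58 on day 3, 7.05 and 7.32 on day 14, 7.61 and 7.87 in parotid and 7.23 in submandibular gland, a range of less than 1 log2 unit, and its day 14 difference of -0.41 did not pass the test (adjusted p = 0.257). Its dimmer, more 3' probe behaved otherwise. Its day 14 difference was -1.68 (adjusted p = 0.00274) and its difference between untreated tumour and parotid gland was 1.60, where the brighter probe gave -0.14. The more 3' probe of Eef1d likewise gave 3.32 in tumour against parotid gland where the brighter gave -0.40, but it was well above background on 1 of the 2 parotid arrays only. At day 14 that probe gave -2.22, and it was well above background on 1 of the 2 day 14 arrays.

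Eef1a1, the main carrier of aminoacyl-tRNA, had 2 bright probes that disagreed, the only member gene with probes called in opposite directions at day 14. The more 3' probe (chr9:78264262-78264321, mm8) read 5.67 and 6.28 in untreated tumour, 6.40 on day 3, 6.84 and 7.31 on day 14, 6.94 and 7.55 in parotid and 6.97 in submandibular gland, and rose at day 14 by 1.10 ± 0.35 (SE, adjusted p = 0.0418 with each probe fitted on its own). The more 5' probe (chr9:78265656-78265715) read 6.08 and 6.59 in untreated tumour, 5.97 on day 3, 4.29 and 5.06 on day 14, 6.67 and 6.81 in parotid and 6.68 in submandibular gland, and fell by 1.66 ± 0.33 (SE, adjusted p = 0.00858). Relative to untreated tumour, the signal of the 5' probe against the 3' probe changed by -2.76 at day 14, -0.79 at day 3, -0.87 in parotid gland and -0.66 in submandibular gland. The mouse genome holds many processed copies of Eef1a1, and which copies each probe detects was not tested. The direction of Eef1a1 mRNA at day 14 therefore cannot be given.

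**Figure D4:**
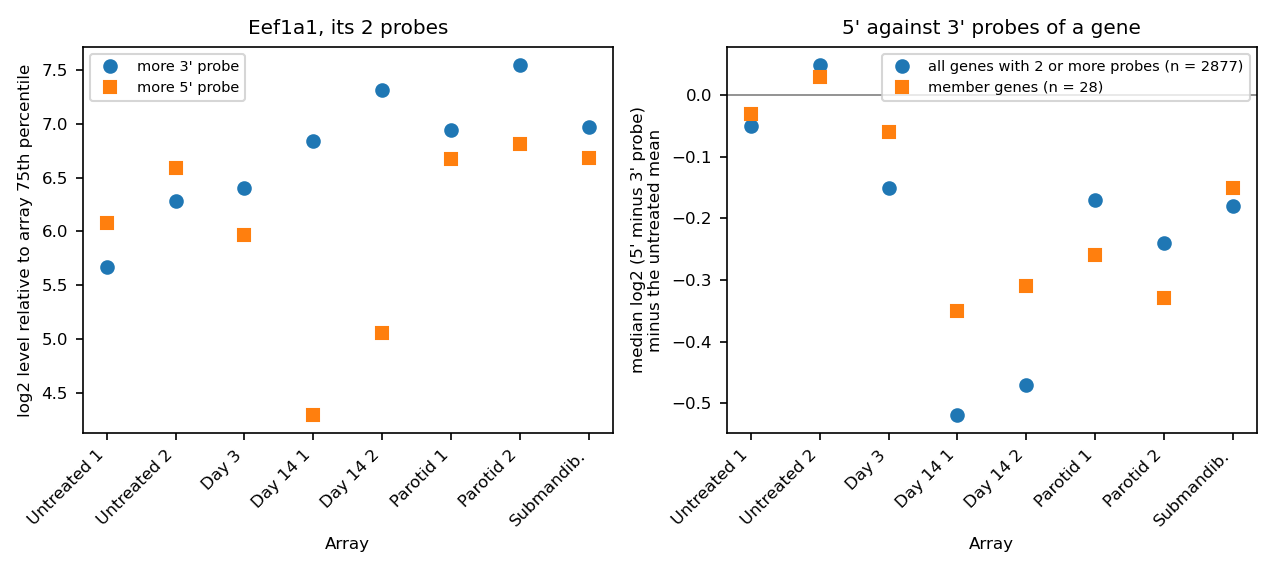
Left, log2 level of the 2 Eef1a1 probes on each array, of which the 3' probe rises and the 5' probe falls between untreated tumour and day 14. Right, for each array the median log2 difference between the more 5' and the more 3' probe of a gene, relative to its mean in untreated tumour, for 2877 genes (circles) and 28 member genes (squares); the day 14 arrays have the lowest medians over all genes, -0.52 and -0.47.

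Eef1a2, the eEF1A form of muscle and neurons, was well above background on the day 14 arrays only. It read -7.37 and -7.78 in untreated tumour, -6.07 on day 3, -0.81 and -0.37 on day 14, -6.18 and -4.33 in parotid and -5.17 in submandibular gland. Day 14 was about 67.8-fold above untreated tumour, 26.1-fold above day 3 and 14.2-fold above parotid gland (limma adjusted p = 0.000806, 0.00869 and 0.0167). Each fold sets the day 14 mean against the lowest signal well above background on the dimmer arrays, or the probe's own signal where higher. In untreated tumour that lowest signal was -6.50 and -6.84. An Ago3 probe at -5.47 and -5.54 there was still not well above background, so these folds are approximate and not strict lower bounds. All 12 skeletal muscle markers, such as Acta1 and Ckm, were well above background on the day 14 arrays and on parotid replicate 2. Their summed log2 level was 10.55 and 10.59 at day 14, 7.24 in parotid replicate 2 and 0.38 to 1.52 elsewhere, with 3 to 6 markers above background there. The part of muscle in the Eef1a2 rise was not tested.

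**Figure D5:**
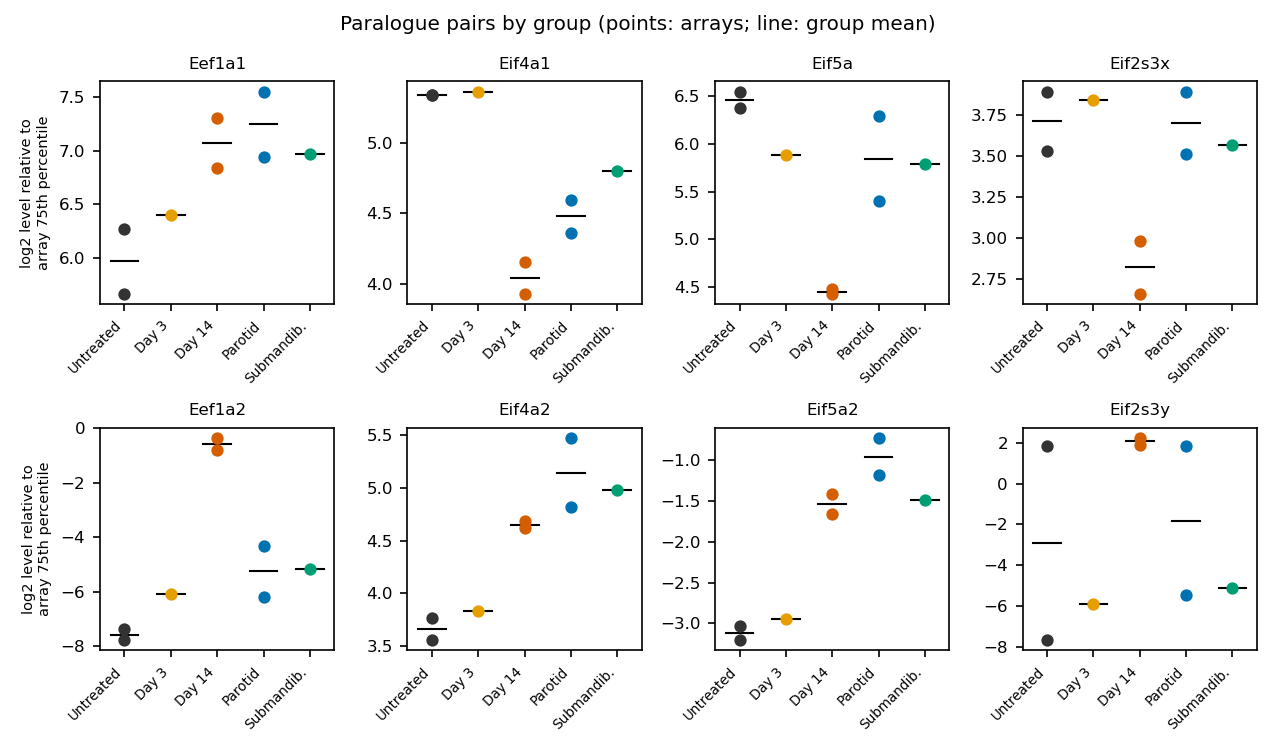
Levels of 4 pairs of paralogues (columns; log2 level relative to the array's 75th percentile) in the 5 groups, with a point for each array and a line for the group mean. Eef1a2 is high on the 2 day 14 arrays only, Eif4a2 and Eif5a2 are low in untreated and day 3 tumour, and Eif2s3y divides arrays within groups.

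On their brightest probes, 1 of the 4 Argonaute genes rose at day 14 and none fell, where 24.3% of all genes rose and 23.5% fell. Ago4 read -0.96 and -1.02 in untreated tumour, -0.09 on day 3, 0.42 and 0.27 on day 14, -0.88 and -0.25 in parotid and -0.91 in submandibular gland. It rose at day 14 by 1.33 ± 0.30 (SE, adjusted p = 0.0138), and its 4 usable probes were all higher there. Ago2, the slicing Argonaute, read 1.65 and 1.5 in untreated tumour, 1.18 on day 3, 1.45 and 0.90 on day 14, 0.55 and 0.42 in parotid and 0.19 in submandibular gland and was higher in untreated tumour than in parotid gland by 1.09 ± 0.26 (SE, adjusted p = 0.0198) and than in submandibular gland by 1.39 ± 0.32 (SE, adjusted p = 0.0214). The 3 usable Ago2 probes gave -1.48 to -0.05 at day 14. Ago1 and Ago3 did not pass the test in any comparison on their brightest probes. The other usable Ago1 probe gave 1.70 for untreated tumour against parotid gland and -1.04 at day 14. Without the Argonautes, 22 of 47 genes fell and 5 rose at day 14, with a median of -0.72.

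Between untreated tumour and parotid gland, 7 of the 51 genes were higher in tumour and 5 lower, where 39.1% of all genes were called (18.7% higher and 20.3% lower), so the members' share (23.5%) was below the background. The 7 were Eif2b1, Eef1e1, Eif2s1, Ago2, Eif4a1, Eif1ax and Eif4a3, and the 5 were Eef1a2, Eif5a2, Eif4a2, Eef1a1 and Eif4e3. Eef1a2 was not well above background on any of those 4 arrays, so no fold is given. The parotid replicates differed, with replicate 2 above replicate 1 in 42 of 51 genes and a median difference of 0.62, against 0.21 over all genes. Without parotid replicate 1 the count was 7 higher and 18 lower, and without replicate 2 it was 15 higher and 4 lower, with a members' median of -0.42 and 0.19 in place of -0.14. It was 5 and 3 without untreated replicate 1 and 2, and 6 without either day 14 array.

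The balance of this comparison also moved under some settings. The percentile over probes above background kept it, at 8 higher and 6 lower with a median of -0.16. Quantile normalization gave 15 higher and 4 lower, the deposited log2 values 15 and 3, normexp background correction 6 and 2 and the mean of a gene's probes 10 and 4, with members' medians of 0.13, 0.23, 0.01 and 0.09. The scalings also moved the median of all genes, to 0.11, 0.12 and -0.12 under the first 3. Called in the same direction under the 5 ways of scaling were 6 genes, Eif2b1, Eef1e1, Eif2s1, Eif4a1 and Ago2 higher and Eif4a2 lower. Eef1g, by contrast, was called higher in tumour under quantile normalization and with the deposited values.

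Against the single submandibular gland, 3 genes were higher in untreated tumour (Ago2, Eif2s1 and Eif2b1) and 3 lower (Eif5a2, Eif4a2 and Eif1b), where 29.5% of all genes were called. Both untreated tumours were on slide 1 and the submandibular gland on slide 2, and with slide as a fixed block none of the 51 genes was called. Quantile normalization gave 14 and 1, the deposited values 15 and 1 and the percentile over probes above background 6 and 0. Only Ago2 was called under all 5 scalings, which all used its brightest probe. Its 3 usable probes differed in sign against submandibular gland, from -0.26 to 1.39. The count was 0 without either untreated array, 1 without either day 14 array and 20 without either parotid array. Between submandibular and parotid gland no member was called by limma, 2 had an unadjusted p under 0.05 (Eif4b at -1.10 and Eef1b2 at -0.77), and 2.35% of all genes were called (1.36% higher and 0.984% lower). Without parotid replicate 1 and 2 the count was 7 and 2.

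At day 3 of rapamycin no member was called by limma, where 1 gene of 16366 was (0.00611%). The members' median was -0.23, against 0.06 for all genes, and 36 of 51 differences were below 0. The members with an unadjusted p under 0.05 were Eif4a3 (-0.83, 95% interval -1.46 to -0.20) and Eif2s1 (-0.70, 95% interval -1.26 to -0.14). Day 3 had 1 array, whose spread was taken to be that of the replicated groups. It was on slide 2 and both untreated tumours on slide 1, so this difference lies wholly between slides; with slide as a fixed block the members' median was -0.51 and the count again 0.

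Day 14 differed from day 3 in 10 genes, 9 lower and 1 higher, where 22.8% of all genes were called (11.8% lower), so the members' share was near the background. Summed Y-linked markers read 1.83 and 1.54 on the day 14 arrays and -4.78 on the day 3 array. Xist read -2.10 and -2.40 against 4.42. Duration and sex cannot be told apart in this comparison. The largest falls were in Eef1e1 (-1.61 ± 0.26 (SE, adjusted p = 0.00944)), Eif2s1 (-1.47, adjusted p = 0.00888), Eif2a (-1.47, adjusted p = 0.0147) and Eif5a, and the rise was Eef1a2. The count was 0 without either day 14 array, 4 without either untreated array and 26 without either parotid array, and quantile normalization and the deposited values each gave 1 higher and 20 lower.

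Day 14 was also compared with normal parotid gland. Their acinar and proliferation marker levels lay close, but muscle markers read 10.55 and 10.59 at day 14 against 1.52 and 7.24 in parotid gland, granular duct markers 12.37 and 12.38 against 9.22 and 10.10, and basal and myoepithelial markers 7.21 and 7.25 against 4.65 and 6.68. T cell markers read 3.29 and 3.68 at day 14 against 5.8 and 0.18 in parotid replicates 1 and 2. Adipocyte markers read 8.14 and 7.96 against 5.7 and 7.75. Submandibular gland read 11.26 for acinar, 1.28 for muscle, 12.11 for granular duct and 7.75 for basal and myoepithelial markers. The part of these cell types and of gland type in the differences was not tested. Of the 51 genes 14 were lower at day 14 and 1 was higher, where 11.3% of all genes were called (6.25% higher and 5.08% lower), and the members' median was -0.55 against -0.02. The largest falls were in Eef2, Eif3i, Eif3k (-1.70 ± 0.23 (SE, adjusted p = 0.0131)) and Eif2a (-1.60 ± 0.22 (SE, adjusted p = 0.0136); 1.40 on its other probe, well above background on 1 of the 2 parotid arrays). Eif2s1, Eif2s2, Eif3d, Eif3e, Eif3f, Eif4a3, Eif4b, Eif5a, Eif1a and Eef1b2 fell too, with differences from -1.39 to -0.93. The count depended on the arrays in the fit. It was 0 without either day 14 array, 4 without either untreated array, and 31 and 21 without parotid replicate 1 and 2, with medians of -0.87 and -0.31. Day 14 shares its arrays across these comparisons, so the values stand side by side and are not independent. On slide 1 alone the members' median was -0.34 for day 14 against parotid gland and -0.67 against untreated tumour, and on slide 2 it was -0.93 against parotid gland.

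Genes that act on this machinery, from 3 lists, changed in both directions at day 14. Among 23 genes that control the cap complex or act in mTOR signalling, 5 rose and 1 fell (26.1% called, against 47.7% of all genes), with a median of -0.03. Eif4ebp1, the eIF4E-binding protein that rapamycin activates by relieving its phosphorylation, read 4.02 and 3.90 in untreated tumour, 3.63 on day 3, 5.66 and 5.67 on day 14, 6.05 and 7.32 in parotid and 5.64 in submandibular gland. It was low in untreated and day 3 tumour, with a difference of -2.72 ± 0.41 (SE, adjusted p = 0.0037) between untreated tumour and parotid gland, and was 1.71 ± 0.41 (SE, adjusted p = 0.016) higher at day 14. Pdcd4, an inhibitor of the Eif4a1 helicase, read -2.10 and -1.34 in untreated tumour, -1.35 on day 3, 0.38 and 0.46 on day 14, 2.36 and 2.11 in parotid and 1.35 in submandibular gland, with differences of -3.95 ± 0.32 (SE, adjusted p = 0.000459) for tumour against parotid gland and 2.14 ± 0.32 (SE, adjusted p = 0.00297) at day 14. The other 3 genes that rose were Eif2ak3, Mknk1 and Mknk2, named here after their values were seen. Eif2ak2, the double-stranded RNA kinase of eIF2α, was the gene that fell (-1.54, adjusted p = 0.0025), and Eif2ak3, the kinase of the endoplasmic reticulum stress response, rose (1.18, adjusted p = 0.00676).

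Of 18 other factors of initiation, termination and rescue, 8 fell and 2 rose at day 14 (55.6% called, against 47.7% of all genes), with a median of -0.59. Gspt2, a form of the release factor eRF3, was about 4.78-fold lower at day 14 (limma adjusted p = 0.0127). It was not well above background there, so the fold was taken as for Eef1a2 and is not a strict lower bound. Bzw2, an eIF5 mimic, differed by -2.48 ± 0.34 (SE, adjusted p = 0.00224), and Eefsec, the elongation factor for selenocysteine, by -2.42 ± 0.22 (SE, adjusted p = 0.000627). Both were higher in untreated tumour than in parotid gland, by 1.68 and 2.09 (adjusted p = 0.0109 and 0.00111). Of the 9 mitochondrial translation factors 4 fell and none rose (44.4% called, near the 47.7% of all genes), with a median of -0.66, and the elongation factors Gfm1 and Tsfm differed by -2.47 ± 0.27 (SE, adjusted p = 0.00113) and -2.32 ± 0.23 (SE, adjusted p = 0.0008). In untreated tumour against parotid gland, 4 of the 9 were higher and none lower (44.4% called, near the 39.1% of all genes).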

How the data were processed

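RNA from 8 samples (2 untreated tumours, 1 tumour at day 3 and 2 at day 14 of rapamycin, 2 parotid glands and 1 submandibular gland) was hybridised to 1-colour Agilent arrays on 2 slides. The deposited scanner tables give the spot intensity as background-subtracted processed signal from Feature Extraction 10.7.3.1, per the file headers, with probe positions on mm8. The authors also deposited a table of log2 values, whose normalization is not given in the sources used here; its column medians were 5.52 to 5.57, each column matched its own array (r = 0.987 to 0.994), and it served as an alternative.

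From the intensities, log2 values minus each array's 75th percentile were computed. Outlier spots were left out, and a probe was kept if all arrays measured it and some group had it well above background throughout (24286 probes). Probes were named through RefSeq accessions (23374), symbols (6733) or synonyms (2919), and 8148 kept the file's name. The brightest kept probe stood for a gene; members used only probes matching the name rule. limma 3.58.1 in R 4.3.3 fitted group means over all 8 arrays (residual df 3) with an intensity trend, and p-values are two-sided, Benjamini-Hochberg adjusted over 16366 genes. The fits were tested on simulated data. Sequences are RefSeq promoters of GRCm38.p6; the probe positions are mm8 and were not converted.

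The genes named with values on every array are 12 defining factors, 4 paralogue pairs and the 6 largest called rises and falls against untreated tumour at day 14 and in tumour against parotid gland; the other comparisons name the 4 largest each way, and each list of other translation genes the 2 largest. Marker lists covered acini, granular ducts, muscle, B and plasma cells, T cells, macrophages, adipocytes, endothelium, fibroblasts, basal and myoepithelial cells, nerve, proliferation, Y-linked genes and Xist. The members, lists and tests were chosen with earlier results of these data known. Alternatives changed the background correction, scaling, filter, probe choice, slide, variance prior, samples and call rule.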

Additional observations from a re-analysis of the deposited data

Results flagged for a closer look

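The day 14 and day 3 tumours, compared as 2 durations of the same treatment, differed by limma's test in 10 genes. Day 3 has 1 array, so its own spread is not measured. Both day 14 arrays had Y-linked signal and the day 3 array did not, so duration and sex cannot be told apart here. Eef1e1 differed by -1.61, Eif2s1 by -1.47, Eif2a by -1.47, Eif5a by -1.43 and Eif4a1 by -1.32 on the log2 scale (day 14 minus day 3). Eif4b differed by -1.28, Eif1ax by -1.08, Eif4a3 by -1.04 and Eif2b1 by -1.02. For Eef1a2 the fitted difference was 5.48, but its probe was not well above background at day 3. Against the lowest signal well above background there the rise was 26.1-fold, which is approximate. The value of Eif2a was 0.23 on its more 3' probe.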

How the results depend on the processing

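At day 14 against untreated tumour the count of 28 was 21 to 36 under every alternative other than leaving out an array of either group, and 11 of the 28 genes were called the same way under every alternative run. Against parotid gland at day 14 (15 genes) the count was 9 without the intensity trend and 2 with only the arrays compared. For untreated tumour against parotid gland (12) it was 19 with quantile normalization and 7 with only the arrays compared. Against submandibular gland (6) it was 1 with normexp, 15 with quantile normalization, 16 with the deposited values, 11 with the mean of probes, 2 without the trend, 0 with slide as a fixed block, 22 with only the arrays compared and 3 with a 2-fold minimum. For day 14 against day 3 (10) it was 21 with quantile normalization, 21 with the deposited values, 6 with slide as a fixed block and 29 with only the arrays compared. The causes were not tested.

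Leaving out 1 array at a time gave 13 to 36 for day 14 against untreated tumour, 0 to 31 against parotid gland and 0 to 26 against day 3. It gave 3 to 25 for untreated tumour against parotid gland, 0 to 20 against submandibular gland, 0 to 7 between the glands and 0 at day 3. A group left with 1 array is assumed to vary like the others.

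Single genes changed sign with a call on either side. For untreated tumour against parotid gland, Eif3g was 0.87 and Eef1b2 0.54 with the deposited values. Eef1d was 1.46 with the mean of probes and 3.32 with the most 3' probe. Eef1g was 1.04 with quantile normalization, 1.16 with the deposited values, 0.73 with the mean of probes and 1.60 with the most 3' probe. At day 14 against untreated tumour, the most 3' probe gave 0.52 for Eif2a, 0.86 for Eif2s2, -1.12 for Eif3c and 0.44 for Eif4e2. The mean of probes gave 0.29 for Eif2s2 and -0.28 for Eef1a1, and the deposited values gave -0.59 for Eif3c. For Eif2a the most 3' probe gave 0.23 against day 3 and 1.40 against parotid gland. The most 3' probe was chosen as an alternative after seeing the data.

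Replicate numbers did not pair the samples: the correlation of replicate deviations was 0.0125 between untreated tumour and parotid gland, 0.138 between untreated tumour and day 14 and -0.0752 between parotid gland and day 14. With the replicate block the counts were 25, 10 and 9 for day 14 against untreated tumour, untreated tumour against parotid gland and day 14 against parotid gland. Signal over background limits Eef1a2, Eif2s3y and Eif2b3.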
